A study of Homo sapiens with 4 samples.

Results

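The comparison described here is that of BEAS-2B cells given 1 Gy of gamma radiation with BEAS-2B cells that were not irradiated. It rests on 2 of the 4 single-cell libraries of the study, 1 for each of these conditions. Genes entered when the mean of their pooled level over both libraries was at least 10 CPM, which 8780 of the 36601 listed genes reached. The level in CPM is the number of unique molecular identifiers (UMIs, tags that mark single captured RNA molecules) of a gene, summed over the kept cell barcodes of a library and scaled to 1000000 UMIs.

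The study exposed the cell line to a caesium gamma source in culture flasks, at a dose rate of 100 mGy per minute, and the methods give 30 minutes of culture between irradiation and cell capture. The control carried no radiation, and the other libraries received 10 mGy and 100 mGy. No genetic change or drug separated the groups. BEAS-2B is an immortalised line made from human bronchial epithelium, so the libraries describe a line in culture and not airway tissue.

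Ionising radiation breaks both strands of DNA. The breaks activate the kinase ATM, which signals to checkpoint kinases and to p53, and p53 then raises transcription of genes such as CDKN1A and MDM2. Immediate early genes, among them FOS, FOSB and EGR1, are transcribed within minutes of many stresses without new protein synthesis. Replication-dependent histone genes supply the histones that package new DNA in S phase, and their mRNAs usually end in a stem-loop in place of a poly(A) tail.

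Each dose had 1 library, so no difference below has a replicate check, nothing was tested between conditions, and an effect of the dose cannot be told apart from one of the library. Ratios are printed with exact 95% intervals from the summed UMIs, which cover counting error only. The control library held 11111 barcodes, of which 8998 had at least 5000 UMIs and at most 10% of them in mitochondrially encoded genes. The 1 Gy library held 15510 barcodes, of which 11455 were kept. The summed depth was close, 208270532 UMIs in the control and 204857725 at 1 Gy, but the median cell was shallower at 1 Gy (16469 against 21702 UMIs). Of the kept barcodes, 31 sequences occurred in both libraries. KRT7, KRT8 and KRT18, keratins of simple epithelia, stood at 218 to 643 CPM, and the mesenchymal markers VIM, FN1 and CDH2 at 183 to 2687 CPM. KRT19, a keratin of the same kind, stood at only 1.72 CPM in both libraries. The epithelial markers EPCAM and CDH1 were at 0.93 CPM or lower in both libraries, and the basal markers KRT5, KRT14 and TP63 at 0.024 CPM or lower. None of 15 markers of other airway, blood and vessel cells reached 10 CPM.

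Most genes were at nearly the same level in both libraries. The median ratio of 1 Gy over control was 1.01, and 98% of genes lay between 0.836 and 1.21. The ratio at percentile 25 was 0.963. More genes thus lay above 1 than below, but fewer than 75% of genes lay above 1. This is the background for list members counted above or below 1. The ratio was over 1.2, the fold the study used, for 115 genes (1.31% of 8780) and under 1/1.2 for 78 genes (0.888%). At a fold of 1.1 the counts were 1265 genes higher (14.4%) and 760 lower (8.66%). Only 3 genes passed a fold of 1.5. The counting interval did not reach 1 for 6122 genes, including all 193 genes past 1.2, but for genes close to 1.2, such as SESN2 (1.202, 1.15 to 1.26), it also holds values under 1.2. When libraries were scaled by the median of gene ratios in place of total UMIs, which moved every ratio down by 0.02 on the log2 scale, the split turned to 77 higher and 115 lower.

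**Figure D1:**
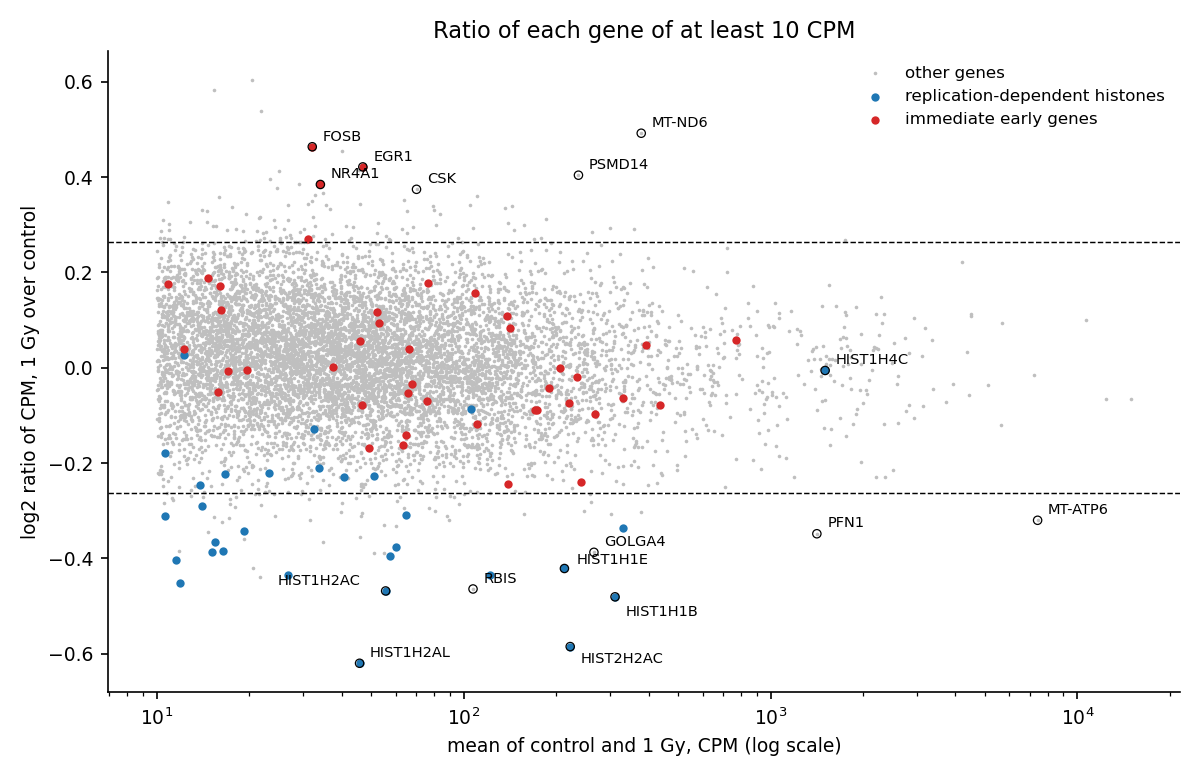
The log2 ratio of CPM at 1 Gy over control (vertical axis) is plotted against the mean CPM of both libraries (horizontal axis, log scale) for 8780 genes, 1 point each. Dashed lines mark a ratio of 1.2 either way. Replication-dependent histones (blue) lie low, FOSB, EGR1 and NR4A1 (red) lie high, and HIST1H4C, at a ratio of 0.996, lies near 0.

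The ratio also moved with the base composition of the genes. Across the 8771 genes with a GENCODE 29 transcript, Spearman's rho between GC content and the log2 ratio was 0.35, a description over genes that share both libraries. When genes were divided by GC content into 10 bins of equal number, the lowest bin had a median log2 ratio of -0.05, and 19.4% of its genes were under 1/1.1. In bin 9 the median was 0.07, and 27.7% were over 1.1. Transcript length showed a rho of 0.05, but the relation did not run one way. In the bin of shortest transcripts, of 10 by length, the median log2 ratio was -0.03, and 18.8% were under 1/1.1. In length bin 4 the median was 0.04, and 20.4% were over 1.1. The part of length in the ratios was not tested, and list counts are not given after length subtraction. The part of base composition in the single-gene ratios was not tested, and counts after subtracting the median of each GC bin (8.25% of all genes over 1.1 and 9.84% under 1/1.1) are given beside many of the lists below. Before subtraction, 14.4% of all genes were over 1.1 and 8.66% under 1/1.1, and the counts of each list are read against these shares.

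**Figure D2:**
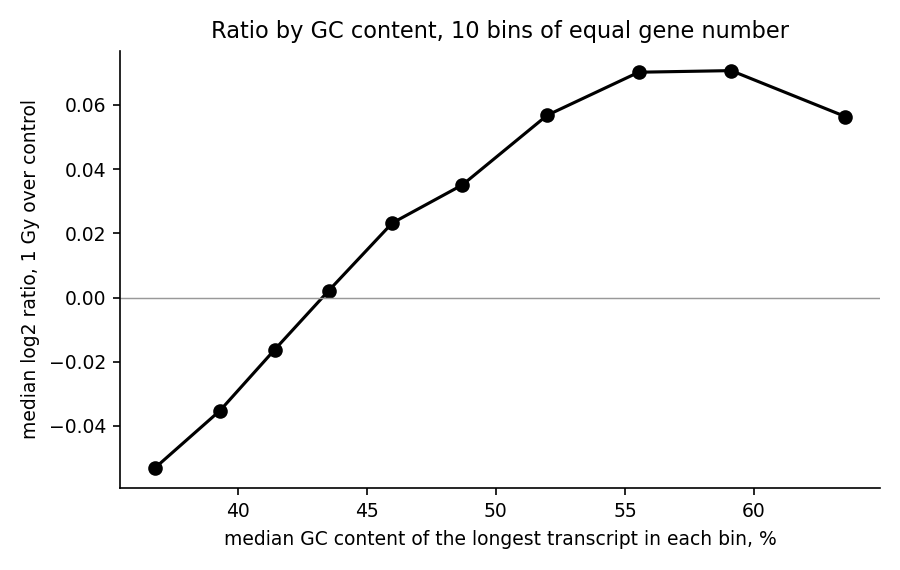
The median log2 ratio of CPM at 1 Gy over control (vertical axis) is plotted for 10 bins of genes ordered by GC content, at the median GC content of each bin in percent (horizontal axis). It lies at -0.05 in the lowest bin, at 0.07 in bins 8 and 9 and at 0.06 in the highest.

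Among genes of at least 50 CPM, MT-ND6 was highest in ratio. This subunit of respiratory complex I is encoded on the light strand of mitochondrial DNA. It stood at 315 CPM in the control and 443 CPM at 1 Gy, a ratio of 1.41 (1.39 to 1.42). PSMD14, the deubiquitinase of the proteasome lid, stood at 203 and 269 CPM (1.32, 1.31 to 1.34). CSK, the kinase that holds SRC family kinases inactive, stood at 61.1 and 79.2 CPM (1.30, 1.27 to 1.33). These 3 genes were the highest at 1 Gy of the 4 libraries, since MT-ND6 was at 81.7 and 50.4 CPM, PSMD14 at 209 and 153 CPM and CSK at 53.1 and 49.8 CPM after 10 and 100 mGy.

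The next 7 genes lay between 1.26 and 1.28. GRINA, a membrane protein of the TMBIM family, was at 96.5 CPM in the control and 124 CPM at 1 Gy. FLOT2, a scaffold of membrane microdomains, was at 56.2 and 71.8 CPM. TCEAL9 was at 92.7 and 118 CPM. GANAB, the catalytic subunit of glucosidase II in glycoprotein folding, was at 127 and 161 CPM, and REXO4, a predicted exonuclease, at 69.8 and 88.4 CPM. ATP6AP1, an accessory protein of the proton-pumping V-ATPase, was at 120 and 151 CPM. AHCY, which splits S-adenosylhomocysteine, was at 70.6 and 88.8 CPM. In the barcodes that the filter left out, 9 of these 10 genes were also higher at 1 Gy, and MT-ND6 was lower there (0.810, 0.767 to 0.857).

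Of the 10 genes of at least 50 CPM with the lowest ratios, 6 were replication-dependent histones: HIST2H2AC, HIST1H1B, HIST1H2AC, HIST1H1D, HIST1H1E and HIST1H2AG. The other 4 serve different functions. RBIS, a ribosome biogenesis factor, was at 124 CPM in the control and 90.1 CPM at 1 Gy (0.725, 0.711 to 0.739). FAM111B, a protease, was at 58.0 and 44.3 CPM (0.764). CEP290, a protein of centrosomes and the base of cilia, was at 62.2 and 47.5 CPM (0.764), and GOLGA4, a tether of the Golgi, at 301 and 230 CPM (0.765). RBIS was higher than the control at the low doses, with 165 CPM after 10 mGy and 216 CPM after 100 mGy, while CEP290 and GOLGA4 were lower than the control there too. In the left-out barcodes RBIS was at a ratio of 1.07, and the other 9 genes were lower at 1 Gy.

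Replication-dependent histones were the list that stood farthest from all genes. Of 67 genes listed, 30 reached 10 CPM, 29 of these were lower at 1 Gy, and 19 (63.3%) were under 1/1.2, against 0.888% of all genes. None was over 1.1. Their median log2 ratio was -0.34, beside 0.02 for all genes. The summed level of all 67 listed genes was 3891 CPM in the control and 3336 CPM at 1 Gy (0.857). After GC bin medians were subtracted, 23 of 29 members were under 1/1.2 and none was over. Many core histone genes of the same type are near-identical copies, so reads can be split between such genes in ways the files do not show. Members are named as in the files, with the current name where a sequence is printed.

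Among linker histones, which bind DNA between nucleosomes, HIST1H1B was at 362 CPM in the control and 260 CPM at 1 Gy (0.717, 0.709 to 0.725). HIST1H1E was at 244 and 182 CPM (0.747), HIST1H1D at 140 and 104 CPM (0.740) and HIST1H1C at 368 and 292 CPM (0.792). HIST1H1A was nearer to the control, at 34.0 and 31.0 CPM (0.914, 0.884 to 0.946). All 5 linker histones were thus lower at 1 Gy, and 4 were under 1/1.2.

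Among core histones, HIST2H2AC was at 267 CPM in the control and 178 CPM at 1 Gy (0.667, 0.658 to 0.676), and HIST1H2AL at 55.4 and 36.1 CPM (0.651, 0.632 to 0.670), the lowest ratio of the list. HIST1H2AC was at 64.6 and 46.7 CPM (0.723) and HIST1H2AG at 65.5 and 49.8 CPM (0.761). Of H2A genes 7 of 8 were under 1/1.2, of H2B genes 6 of 9, of H3 genes 1 of 5 and of H4 genes 1 of 3. The medians of the ratio were 0.769 for H2A, 0.766 for H2B, 0.858 for H3 and 0.864 for H4. HIST1H4C, by far the most abundant member, was at 1508 CPM in the control and 1502 CPM at 1 Gy (0.996, 0.991 to 1.00). HIST1H2BN was the single member above 1 (12.1 and 12.3 CPM; 1.02, 0.963 to 1.08).

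The promoters of 3 members are shown because these genes are among those with the lowest ratios and carry elements shared by the family. They are the 250 bases before the RefSeq start on GRCh38.p14: chr6:27867589-27867838 on the minus strand for H1-5 (HIST1H1B), chr6:26234988-26235237 on the minus strand for H1-3 (HIST1H1D) and chr1:149886668-149886917 on the plus strand for H2AC20 (HIST2H2AC). Capitals mark the H1 box AAACACA (in H1-5 and H1-3), the TATA box TATAAA and CCAAT, each searched on both strands.
H1-5: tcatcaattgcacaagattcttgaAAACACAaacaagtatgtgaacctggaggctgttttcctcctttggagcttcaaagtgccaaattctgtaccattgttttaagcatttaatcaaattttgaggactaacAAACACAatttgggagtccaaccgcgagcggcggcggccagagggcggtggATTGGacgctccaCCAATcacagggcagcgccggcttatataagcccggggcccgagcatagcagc
H1-3: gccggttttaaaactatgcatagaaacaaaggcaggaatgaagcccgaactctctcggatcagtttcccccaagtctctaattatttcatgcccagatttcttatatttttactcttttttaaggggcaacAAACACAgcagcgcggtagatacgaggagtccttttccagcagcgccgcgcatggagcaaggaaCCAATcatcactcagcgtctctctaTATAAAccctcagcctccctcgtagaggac
H2AC20: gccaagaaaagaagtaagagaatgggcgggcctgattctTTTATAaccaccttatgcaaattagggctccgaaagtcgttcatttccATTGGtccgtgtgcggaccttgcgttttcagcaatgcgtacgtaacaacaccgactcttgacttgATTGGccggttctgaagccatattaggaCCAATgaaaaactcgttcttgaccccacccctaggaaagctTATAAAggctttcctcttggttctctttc
The H1 box was in the windows of all 5 linker histones and in 4.82% of all 35116 windows of this length. TATAAA was in 64.5% of the 31 windows of the histone list (28 genes matched) and in 10.7% of all windows. CCAAT was in 93.5% and 32.0%. A match is a description of the letters and says nothing of binding.

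The letters of the 3′ stem-loop that replaces the poly(A) tail were searched in GENCODE 29 transcripts, since capture on poly(A) can miss such mRNAs. They were found in 14 of the 29 members with a transcript. The annotated transcript mostly runs on past them, by 1114 bases in HIST1H2AC against 5 bases in HIST1H2BN. The stem-loop is shown for a member with a low ratio and for the member above 1, with capitals for the paired stem.
HIST1H2AC: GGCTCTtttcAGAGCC
HIST1H2BN: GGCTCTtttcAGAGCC
The annotated transcripts of HIST1H1B (681 bases) and HIST2H2AC (390 bases), among those without it, run from the start codon to the stop codon. The 3′ end was thus not in the sequence searched for them.

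Replication-independent histones, which are expressed outside S phase as well, stayed near 1. All 9 lay between 0.959 and 1.03, and none passed 1.1. H2AFZ, a variant of H2A, was at 1144 CPM in the control and 1097 CPM at 1 Gy, H3F3B, a gene of histone H3.3, at 1348 and 1381 CPM, and H2AFX, the variant phosphorylated at DNA breaks, at 204 and 196 CPM. Of 9 measured factors of histone transcription and mRNA handling, CASP8AP2 was at 48.6 and 40.2 CPM (0.828, 0.804 to 0.852) and NPAT, the coactivator of histone genes, at 37.7 and 34.4 CPM (0.911). SYMPK, of the cleavage complex, was at 29.2 and 34.1 CPM (1.17). These 2 lists were added after the histone values were seen.

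The lower histone level was seen in each of 3 classes of cells. Cells were thinned to 5000 UMIs and divided into 3 classes by the UMIs of a replication list and of a G2/M list, with the same limits in both libraries. The list sum at 1 Gy over control was 0.861 (0.856 to 0.865) in cells high in the replication list, 0.912 (0.906 to 0.917) in cells high in the G2/M list and 0.844 (0.839 to 0.848) in cells low in both. Of 30 members, 28, 28 and 30 were below 1 in these classes. HIST1H1B was at 0.741, 0.766 and 0.693, and HIST2H2AC at 0.669, 0.738 and 0.644. The shares of the classes were close in the replication list (29.6% in the control and 29.4% at 1 Gy). They differed more in the G2/M list, at 31.5% (30.6 to 32.5) and 34.7% (33.8 to 35.6). These classes are ranges of a score. In the control the list sum was 4709.5 CPM in cells high in the replication list and 4291.8 CPM in cells low in both. It was 2805.1 CPM in cells high in the G2/M list. Cells low in both were thus near the replication class in histone level. Whether the lower level at 1 Gy held apart from S phase cannot be read from this split. Of the 1 Gy cells not over the G2/M limit, 19.1% lay near the limit of the replication list. Of all 1 Gy cells, 6.68% lay near the limit of the G2/M list, counted over a wider range of UMIs.

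**Figure D3:**
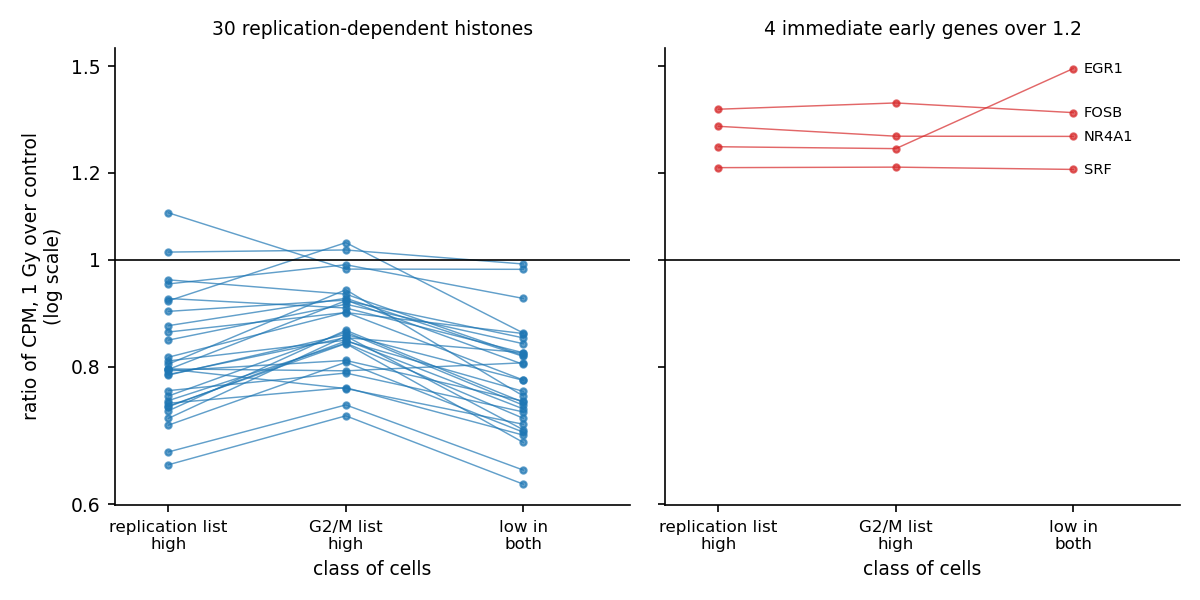
The ratio of CPM at 1 Gy over control (vertical axis, log scale) is shown in 3 classes of cells (horizontal axis), with 1 line per gene. At left, 28, 28 and 30 of the 30 replication-dependent histones lie below 1 in the classes. At right, FOSB, EGR1, NR4A1 and SRF lie above 1.2 in all 3 classes.

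The low doses are set against the same control library, from which both low-dose libraries differed broadly in composition, as given above. HIST1H1B was at 129 CPM after 10 mGy and 153 CPM after 100 mGy, and HIST2H2AC at 141 and 154 CPM, all lower than at 1 Gy. HIST1H4C went the other way, with 1909 and 2803 CPM. The summed list was at 3121 CPM after 10 mGy and 3976 CPM after 100 mGy. In the left-out barcodes the median log2 ratio of the list at 1 Gy was -0.38.

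**Figure D4:**
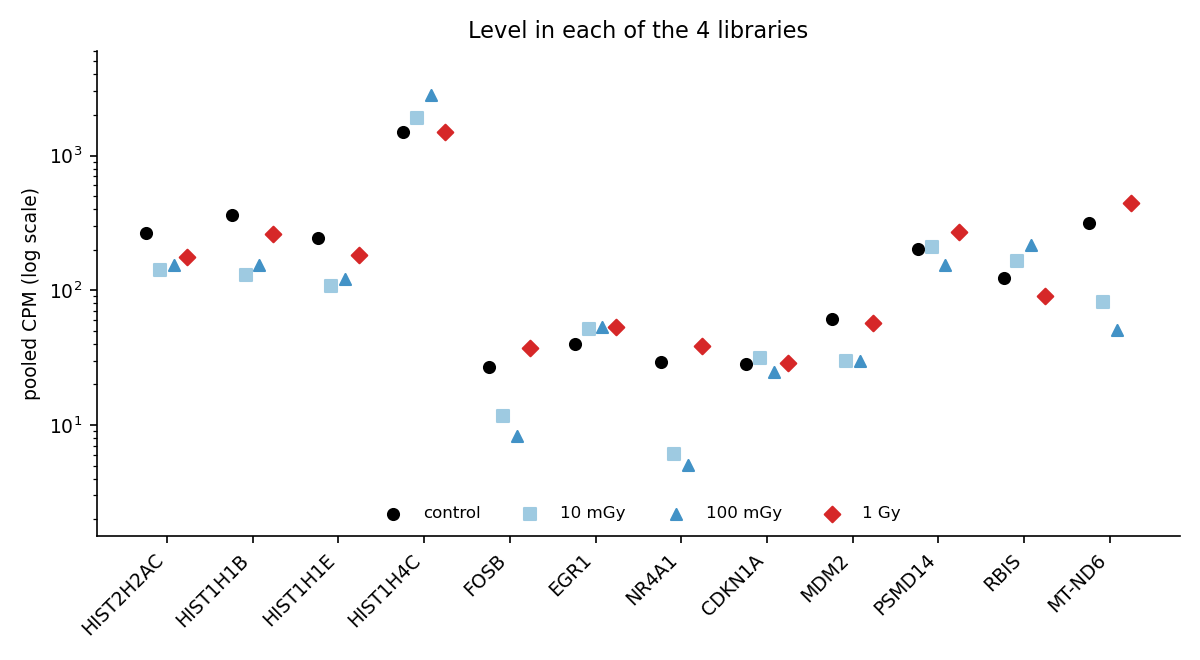
Pooled CPM (vertical axis, log scale) of 12 genes is plotted in the 4 libraries, with 1 point per library. The 1 Gy point of HIST2H2AC, HIST1H1B and HIST1H1E lies between the control and the low doses, that of FOSB, NR4A1, PSMD14 and MT-ND6 above all other points, and that of RBIS below them.

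A small group of immediate early genes was higher at 1 Gy. Of 53 listed genes 42 reached 10 CPM, 4 of them (9.52%) were over 1.2, against 1.31% of all genes, and none was under 1/1.2. FOSB, a partner of JUN in the AP-1 factor, was at 27.0 CPM in the control and 37.2 CPM at 1 Gy (1.38, 1.33 to 1.43). EGR1, a zinc finger factor, was at 40.1 and 53.7 CPM (1.34, 1.30 to 1.38). NR4A1, an orphan nuclear receptor, was at 29.6 and 38.6 CPM (1.31, 1.26 to 1.35). SRF, the serum response factor, was at 28.2 and 34.1 CPM (1.21, 1.17 to 1.25).

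The list as a whole did not move one way. Its median log2 ratio was 0.00 (21 members above 1 and 21 below), with 9 members (21.4%) over 1.1, against 14.4% of all genes, and 5 (11.9%) under 1/1.1, against 8.66%. FOS was at 15.4 and 16.8 CPM (1.09, 1.04 to 1.14), JUN at 276 and 258 CPM (0.935) and JUNB at 19.7 and 19.6 CPM (0.997). ATF3, a stress factor, was at 15.0 and 16.9 CPM (1.13). GADD45B was at 151 and 128 CPM (0.844) and ID1, a target of BMP signals, at 260 and 221 CPM (0.847). After GC bin medians were subtracted, 3 members were over 1.2 and 2 under 1/1.2. The balance past 1.1 turned, with 6 members over 1.1 and 11 (26.2%) under 1/1.1, against 9.84% of all genes, and a median log2 ratio of -0.05. The median was -0.16 in the left-out barcodes.

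After 10 and 100 mGy, FOSB was at 11.6 and 8.24 CPM and NR4A1 at 6.10 and 5.06 CPM, below the control, whereas EGR1 was at 51.4 and 53.1 CPM, close to its level at 1 Gy. Within the 3 classes of cells, the ratio at 1 Gy was 1.36 to 1.39 for FOSB and 1.29 to 1.32 for NR4A1. That of EGR1 was 1.27 in cells high in the replication list, 1.26 in cells high in the G2/M list and 1.49 in cells low in both. After thinning to 5000 UMIs, EGR1 had a UMI in 14.8% of control cells and 19.1% of 1 Gy cells (38.3% and 41.0% unthinned). FOSB had one in 11.9% and 15.8% (38.3% and 39.6% unthinned). No cell type that lacks these genes was captured, so the share given by free RNA could not be read.

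The promoters of EGR1 and FOSB are shown because these genes had the highest ratios of the list. They lie before the RefSeq starts at chr5:138465229-138465478 and chr19:45467746-45467995 on GRCh38.p14, both on the plus strand. Capitals mark the CArG box, the element that SRF binds, in EGR1, and TATAAA in FOSB.
EGR1: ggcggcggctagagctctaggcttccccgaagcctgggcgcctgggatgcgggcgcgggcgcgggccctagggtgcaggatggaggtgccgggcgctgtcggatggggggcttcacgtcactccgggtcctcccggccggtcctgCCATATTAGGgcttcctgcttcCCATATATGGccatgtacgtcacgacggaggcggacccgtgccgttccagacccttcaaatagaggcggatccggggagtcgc
FOSB: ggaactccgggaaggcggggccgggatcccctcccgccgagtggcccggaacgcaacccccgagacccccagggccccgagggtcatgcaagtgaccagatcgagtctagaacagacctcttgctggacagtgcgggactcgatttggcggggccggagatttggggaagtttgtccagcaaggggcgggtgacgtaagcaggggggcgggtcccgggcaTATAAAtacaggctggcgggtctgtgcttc
The EGR1 window held 2 CArG boxes, which began 105 and 83 bases before the start, and 1.16% of all 35116 windows held one. It was in 2 of the 44 windows of the immediate early list and in 1 of the 31 of the histone list, the window of H2AC20 printed above, where it is left in lower case. No CArG box was found in the window of FOSB.

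Of 44 listed targets of p53, 29 reached 10 CPM, with 21 members above 1. Their median log2 ratio was 0.05, beside 0.02 for all genes. The median was 0.0042 after GC bin medians were subtracted and -0.06 in the left-out barcodes, where that of all genes was -0.05. At a fold of 1.1, 2 members (6.90%) were higher, against 14.4% of all genes, and 3 (10.3%) were lower, against 8.66%. The same 2 members (6.90%) were over 1.2, against 1.31% of all genes. POLH, a polymerase that copies past lesions, was at 20.3 CPM in the control and 24.4 CPM at 1 Gy (1.21, 1.16 to 1.26), and SESN2, a stress-induced inhibitor of mTORC1, at 17.6 and 21.2 CPM (1.202, 1.15 to 1.26). None was under 1/1.2. CDKN1A, the inhibitor of cyclin-dependent kinases, was at 28.6 and 28.9 CPM (1.01, 0.975 to 1.05) over all cells. Within the 3 classes of cells its ratio was 0.985 (0.922 to 1.05) in cells high in the replication list, 1.19 (1.11 to 1.28) in cells high in the G2/M list and 0.966 (0.914 to 1.02) in cells low in both. MDM2, the ubiquitin ligase of p53, was at 61.2 and 57.0 CPM (0.932, 0.909 to 0.956), and at 0.847, 0.989 and 0.940 in the same classes. PLK2 was at 338 and 287 CPM (0.848) and GADD45A at 169 and 146 CPM (0.864). GDF15 was under 1 CPM in both libraries. After subtraction of GC bin medians, no member was over 1.2 and 1 was under 1/1.2. Whether p53 is functional in this line was not tested.

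Genes of the double-strand break response leaned lower. Of 57 listed genes 50 reached 10 CPM. None passed 1.2, none was over 1.1, and 13 (26.0%) were under 1/1.1, against 8.66% of all genes. Their median log2 ratio was -0.05, and their median GC content was 42.3%, below the 47.3% of all genes. After GC bin medians were subtracted, 10 of 50 were under 1/1.1, against 9.84% of all genes. The lowest were genes of homologous recombination and end protection. BRCA2, a mediator of strand exchange, was at 133 CPM in the control and 111 CPM at 1 Gy (0.834, 0.819 to 0.848), and PALB2, its partner, at 29.1 and 24.3 CPM (0.834). RIF1, which shields broken ends from resection, was at 210 and 178 CPM (0.850), and SHLD2, of the shieldin complex, at 52.4 and 44.5 CPM (0.850). The sensor NBN was at 58.1 and 50.8 CPM (0.875). ATM itself was at 69.5 and 69.4 CPM (0.999, 0.976 to 1.02). The end-joining protein XRCC6 was the highest member, at 415 and 453 CPM (1.09). BRCA2 and RIF1 were lower still after 10 mGy (73.8 and 109 CPM) and 100 mGy (66.9 and 102 CPM).

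Of 46 excision and mismatch repair genes 5 (10.9%) were over 1.1, against 14.4% of all genes, and 5 under 1/1.1, against 8.66%. DDB1, which recognises ultraviolet damage with DDB2, was at 91.0 and 105 CPM (1.16), and the glycosylase NEIL3 at 21.9 and 19.0 CPM (0.868).

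Replication and G1/S genes, which encode the replication machinery, did not follow the histones. Of 50 measured, none passed 1.2, 4 were over 1.1 and 4 under 1/1.1, and their sum was 1.01 times the control. MCM7, of the replicative helicase, was at 144 and 164 CPM (1.14) and DUT, which removes dUTP, at 246 and 216 CPM (0.881). Of 66 G2/M and mitosis genes 15 (22.7%) were over 1.1, against 14.4% of all genes, and 6 (9.09%) under 1/1.1, against 8.66%, with a median log2 ratio of 0.06. With GC bin medians subtracted, 10 were over 1.1 and 2 under 1/1.1. In the left-out barcodes the median was -0.03, beside -0.05 for all genes there. CDC25B, a phosphatase that activates cyclin-dependent kinases at mitotic entry, was at 96.6 and 118 CPM (1.23, 1.203 to 1.25). CDK1, the mitotic kinase, was at 83.1 and 99.7 CPM (1.1998), GTSE1 at 175 and 210 CPM (1.199) and PLK1 at 94.2 and 111 CPM (1.17). CENPE, a kinetochore motor, was at 129 and 111 CPM (0.862). The share of cells high in the same G2/M list was higher at 1 Gy, as given above, and its part in these ratios was not tested. Of 30 genes of the anaphase promoting complex and SCF ligases, 2 were over 1.1 and 5 under 1/1.1. FZR1, an activator of that complex, was at 27.3 and 32.8 CPM (1.2006), and FBXO5, an inhibitor of it, was at 87.2 and 75.5 CPM (0.866).

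Mitochondrially encoded genes moved unequally. Their median log2 ratio was 0.03, and -0.30 in the left-out barcodes. MT-ND3 was at 1585 and 1908 CPM (1.204), MT-ATP8 at 90.1 and 107 CPM (1.18) and MT-ATP6 at 8234 and 6596 CPM (0.801, 0.799 to 0.803). The other 9 besides MT-ND6 lay between 0.951 and 1.08, and the share of the whole list of MT- genes in all UMIs was 5.90% in the control and 5.80% at 1 Gy. MT-ATP8 and MT-ATP6 overlap on the genome, so reads of the overlap cannot be given to 1 of them with certainty. MT-ND6 lies opposite the strand of the other genes, and how the counting used strand is not given in the sources used here.

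Of 37 nuclear complex I genes 2 were over 1.1 and 4 under 1/1.1, with NDUFC2 at 285 and 235 CPM (0.822). Of 38 genes of complexes III, IV and V, 5 were over 1.1 and 5 under 1/1.1, and of 22 import genes 4 and 3. After GC subtraction 7 complex I genes and 7 of complexes III, IV and V were under 1/1.1. In the left-out barcodes the median log2 ratio was 0.19 for complex I (-0.03 in the kept barcodes), 0.24 for complexes III, IV and V (0.00) and 0.20 for import genes (0.04). Of 75 mitochondrial ribosomal proteins 17 (22.7%) were under 1/1.1, against 8.66% of all genes, and 5 over 1.1. MRPL13 was the lowest of these, at 70.1 and 57.2 CPM (0.816, 0.796 to 0.836). After GC bin medians were subtracted, 24 were under 1/1.1, against 9.84% of all genes. In the left-out barcodes the median log2 ratio of the list was above 0, at 0.06.

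Cytosolic ribosomal proteins were close to the control. Of 46 large subunit genes 2 were over 1.1 and 3 under 1/1.1, and of 31 small subunit genes none and 1, against 14.4% and 8.66% of all genes. After GC subtraction none was over 1.1, and 6 large and 4 small subunit genes were under 1/1.1. Their median log2 ratios were 0.22 and 0.25 in the left-out barcodes. RPL18 was at 2377 and 2028 CPM (0.853), RPL19 at 1288 and 1099 CPM (0.853), RPS16 at 2541 and 2168 CPM (0.853) and RPLP0 at 1460 and 1646 CPM (1.13). Many pseudogene copies exist for these genes, so their counts are uncertain. After 10 and 100 mGy, RPL18 was at 3204 and 3565 CPM, above both libraries compared here. Translation factors (41) had 4 members each way past 1.1, with EIF2S2 at 660 and 786 CPM (1.19) and NACA at 997 and 860 CPM (0.863).

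Aminoacyl tRNA synthetases charge tRNAs. Of 18 members 17 were above 1, with a median log2 ratio of 0.08, beside 0.02 for all genes. Those over 1.1 were 2 (11.1%, against 14.4% of all genes): SARS, at 151 and 179 CPM (1.19), and AARS, at 47.9 and 53.9 CPM (1.13). With GC subtraction the median was 0.04 and 1 was over 1.1. In the left-out barcodes the median was -0.01, beside -0.05 for all genes there. The ATF4 stress list, which shares these members and SESN2, had 6 of 23 over 1.1 and none under 1/1.1. Among its other members, PSAT1, of serine synthesis, was at 26.8 and 30.6 CPM (1.14). After GC bin medians were subtracted, that list had 4 over 1.1 and 4 under 1/1.1.

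Proteasome subunits differed from one another. PSMD14 was the only one of 44 over 1.2, PSMC1, an ATPase of the base, was at 170 and 201 CPM (1.19), and 8 (18.2%, against 8.66% of all genes) were under 1/1.1, among them PSMB1 (359 and 303 CPM, 0.845) and PSMB3 (179 and 153 CPM, 0.855) of the core. GC subtraction left 2 over 1.1 and 10 under 1/1.1. The chaperonin CCT, which folds actin and tubulin, had 7 of 8 subunits below 1, 3 of them under 1/1.1 (4 after GC subtraction), and a median log2 ratio of -0.11, with CCT2 at 280 and 241 CPM (0.861) and CCT6A at 444 and 386 CPM (0.868). CCT7 was the exception, at 149 and 161 CPM (1.08). Heat shock proteins had 5 of 27 (18.5%, against 8.66% of all genes) under 1/1.1 and 1 over 1.1, HSPA1A, at 26.2 and 29.3 CPM (1.12). After GC subtraction 4 were under 1/1.1 and none over 1.1. HSPA4 was at 230 and 200 CPM (0.868).

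The V-ATPase, which acidifies lysosomes, had 6 of 15 subunits over 1.1 (against 14.4% of all genes) and 1 under 1/1.1. ATP6V0C, of the membrane ring, was at 236 and 288 CPM (1.22, 1.204 to 1.23), and ATP6V1F at 319 and 278 CPM (0.870). Cholesterol synthesis and uptake had 8 of 33 (24.2%, against 14.4% of all genes) over 1.1 and 1 under 1/1.1. DHCR7, a reductase of the last steps, was at 46.9 and 57.9 CPM (1.23). SREBF2, the regulator of the pathway, was at 43.7 and 50.2 CPM (1.15). With GC bin medians subtracted, 2 cholesterol genes were over 1.1 and 2 under 1/1.1, while the V-ATPase had 4 and 2. Glycolysis had 6 of 24 over 1.1 (against the same 14.4% of all genes) and 1 under 1/1.1, and 1 and 3 after GC subtraction, with PGAM1 at 189 and 223 CPM (1.18).

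All 6 measured genes of calcium-binding S100 proteins were below 1 and 4 were under 1/1.1, against 8.66% of all genes, including S100A11 at 770 and 648 CPM (0.841) and S100A6 at 1846 and 1672 CPM (0.906). Both were above the control at the low doses (S100A6 at 3976 and 3477 CPM), and in the left-out barcodes the median log2 ratio of the list was above 0, at 0.14. Actin and myosin light chain genes showed no common direction, with 2 of 27 over 1.1, 3 under 1/1.1 and a median log2 ratio of 0.00. After GC subtraction 2 were over 1.1 and 5 (18.5%, against 9.84% of all genes) under 1/1.1, with a median of -0.06. In the left-out barcodes the median was 0.08. PFN1, profilin, which delivers actin monomers, was at 1585 and 1245 CPM (0.786, 0.781 to 0.790), and it was the only one of them past 1.2. TUBA1C, an alpha tubulin in the same list, was at 670 and 770 CPM (1.15). VIM was at 2687 and 2315 CPM (0.862), KRT17 at 76.0 and 65.5 CPM (0.862) and KRT81 at 19.8 and 16.2 CPM (0.816). KRT8 (0.901), KRT7 (0.920) and KRT18 (0.924) were lower by less. Of 7 keratin genes 3 were under 1/1.1 (5 after GC subtraction), and of 19 keratin and epithelial-mesenchymal genes none was over 1.1 and 4 were under 1/1.1 (7 after GC subtraction). Large cytoskeletal and adhesion genes had 1 of 27 over 1.1 and 3 under 1/1.1 (0 and 4 after GC subtraction), with DST at 932 and 815 CPM (0.875). Their median log2 ratio was 0.01, and -0.29 in the left-out barcodes. In the TGF-beta and matricellular list (2 of 36 over 1.1 and 6 under 1/1.1), the receptor kinase AXL was over 1.2, at 268 and 329 CPM (1.23). After GC subtraction 2 of that list were over 1.1 and 8 (22.2%) under 1/1.1. Its median log2 ratio was 0.00, and -0.18 in the left-out barcodes.

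NRF2 targets had 3 of 25 over 1.1 and 1 under 1/1.1, with HMOX1, which degrades heme, at 313 and 352 CPM (1.12) and TXN, thioredoxin, at 1103 and 985 CPM (0.893). Enzymes of peroxide and superoxide removal had 3 of 20 under 1/1.1 and none over 1.1, with PRDX4 at 87.8 and 73.6 CPM (0.839). After GC subtraction 5 of them were under 1/1.1, against 9.84% of all genes. Their median log2 ratio was -0.05, and 0.05 in the left-out barcodes. In the metallothionein list (5 measured, 1 over 1.1 and 1 under 1/1.1, and 1 and 3 after GC subtraction) MT2A, MT1E and MT1X were at ratios of 0.929, 0.926 and 0.878, and MTF1, the factor that drives them, at 26.8 and 32.1 CPM (1.2004). The median log2 ratio of the list was -0.11, and 0.14 in the left-out barcodes. Interferon-stimulated genes had 4 of 23 (17.4%, against 14.4% of all genes) over 1.1 and none under 1/1.1, led by IFITM3 (165 and 191 CPM, 1.15). After GC subtraction none was over 1.1 and 4 were under 1/1.1. NF-kB targets and cytokines had 1 of 21 over 1.1, BCL3 (1.18), and 2 under 1/1.1, CXCL8 (39.4 and 33.2 CPM, 0.844) and BIRC3 (36.9 and 32.4 CPM, 0.878). Of 11 members of the BCL2 family of apoptosis regulators, BAK1 was over 1.1 (14.1 and 16.5 CPM, 1.17) and BID under 1/1.1, at 0.908.

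Of 29 snoRNA host and nuclear retained RNAs 4 (13.8%, against 14.4% of all genes) were over 1.1 (6 after GC subtraction) and none was under 1/1.1. SNHG25 was at 25.1 and 32.8 CPM (1.31, 1.26 to 1.36), and NEAT1, the scaffold of paraspeckles, at 3875 and 4522 CPM (1.17, 1.16 to 1.17). Splicing factors had 6 of 57 over 1.1 and 3 under 1/1.1, with SF3B6 at 281 and 234 CPM (0.832). RNA polymerase subunits had 2 of 30 each way, with POLR2G at 61.2 and 75.2 CPM (1.23). Of 147 zinc finger ZNF genes 17 were over 1.1 and 20 under 1/1.1, and 4 were under 1/1.2, the lowest ZNF675 at 23.5 and 17.6 CPM (0.747). The 14-3-3, ubiquitin and SUMO list had 1 of 12 each way.

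**Figure D5:**
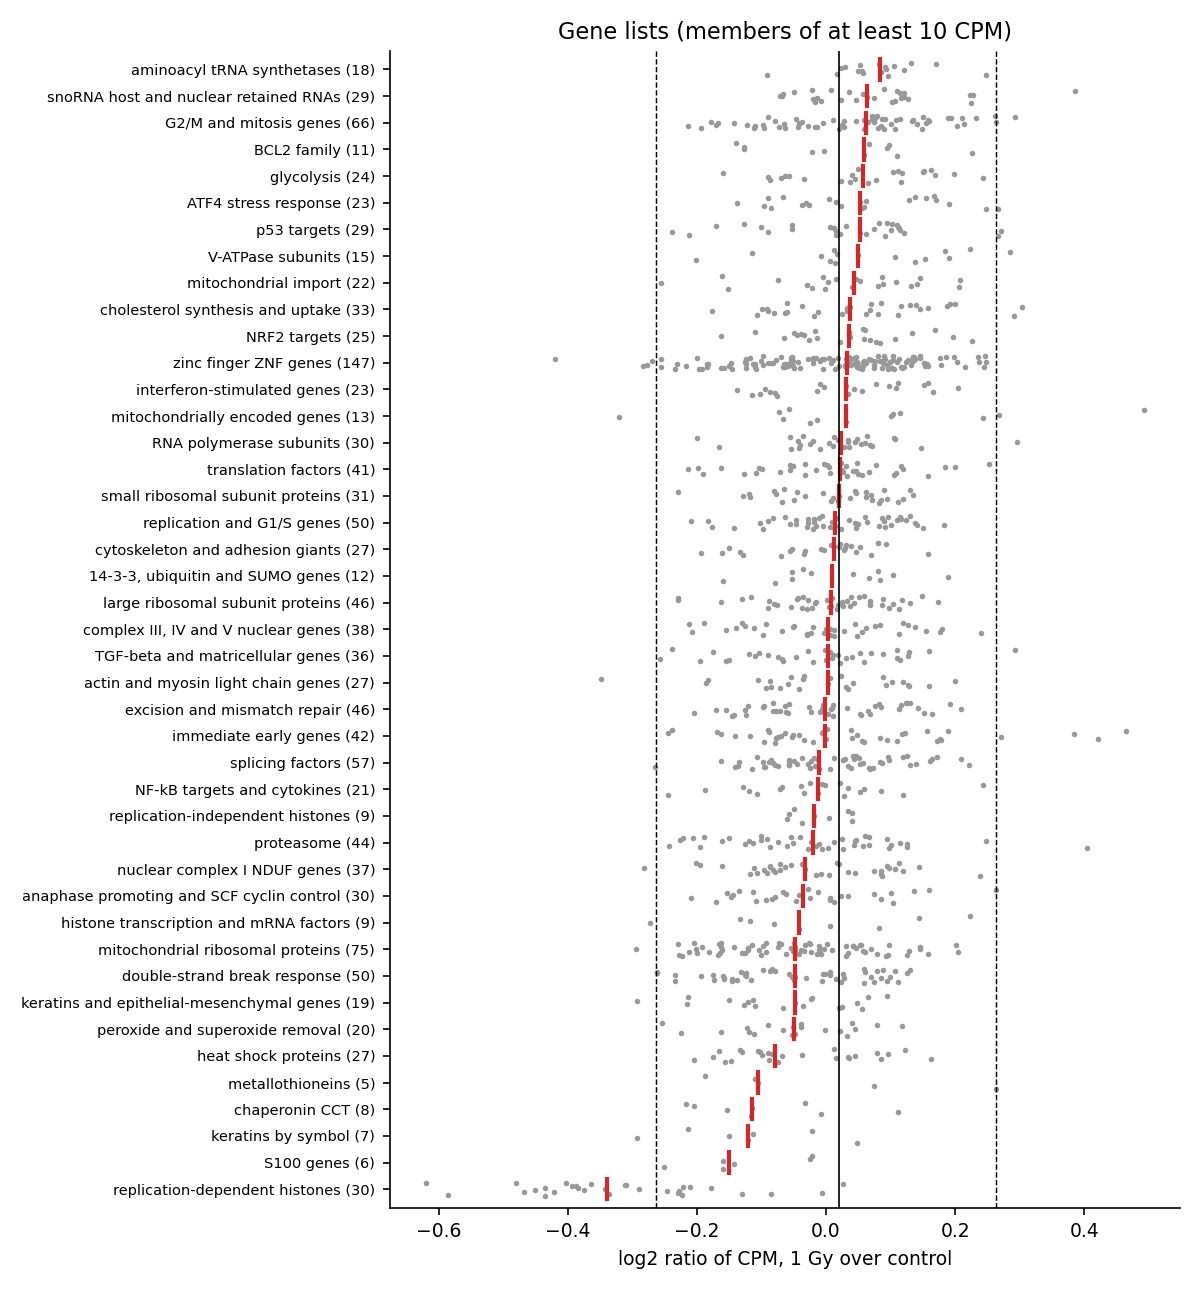
The log2 ratio of CPM at 1 Gy over control (horizontal axis) is plotted for the members of each list with at least 5 members of 10 CPM (rows, number of members in brackets). Grey points are genes, red bars list medians, the solid line the median of all genes (0.02) and dashed lines a ratio of 1.2 either way. Only the median of the replication-dependent histones (-0.34) lies past a dashed line.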

How the data were processed

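BEAS-2B cells were captured in 1 single-cell library per dose, and samples were grouped by the treatment in their labels. The authors deposited raw UMI counts per gene and barcode. The file header names Cell Ranger 7.0.1, and the submitters' processing notes list Cell Ranger, STAR and GRCh37 without their roles. The annotation release is not given in the sources used here. Barcodes with at least 5000 UMIs and at most 10% of UMIs in MT- genes were kept, counts were pooled, and CPM, the ratio of 1 Gy over control and its exact conditional (Clopper-Pearson) 95% interval were computed with scipy 1.17.1, numpy 2.4.6 and pandas 2.3.3 in Python 3.11.15. Shares have exact binomial intervals, and thinning was seeded. No doublet caller was run. With 1 library per dose no test was possible. The ratio code was tested on simulated data.

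The genes and lists (45, and 2 added later) were chosen with earlier results of these data known. Named were the 10 highest and 10 lowest ratios among genes of at least 50 CPM, up to 4 members of each list with the largest ratio either way, members of the p53, immediate early and break lists past 1.2, defining genes (such as CDKN1A, FOS and ATM) and line markers. HIST1H1A, HIST1H1C, HIST1H4C, HIST1H2BN, H3F3B, JUNB, ATF3, NBN, XRCC6, CENPE, CCT7 and GADD45B were named for description after their values were seen. Some genes that the rule names are not reported here. Gene GC content and length came from the longest GENCODE 29 transcript, matched by identifier, and promoters from RefSeq on GRCh38.p14. Alternatives changed the barcode filter, depth, scaling, cell cycle mix, GC and length, the CPM floor and the fold.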

Additional observations from a re-analysis of the deposited data

Results flagged for a closer look

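The filter left out 26.1% of the 1 Gy barcodes and 19.0% of the control barcodes, which is a signal in data that the comparison does not use. Most were under 5000 UMIs (3980 at 1 Gy and 2051 in the control), and 75 and 62 exceeded 10% of UMIs in mitochondrially encoded genes. These barcodes held 6894555 UMIs at 1 Gy and 4534318 in the control.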

How the results depend on the processing

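No paired analysis was possible because each dose had 1 library. Against 115 genes higher and 78 lower past 1.2, the counts were 232 and 146 with at most 5% mitochondrial UMIs, 194 and 121 after thinning to 5000 UMIs, 466 and 184 at a floor of 1 CPM (13112 genes) and 17 and 15 at a floor of 100 CPM (1942 genes), 1265 and 760 at a fold of 1.1, and 1 and 2 at a fold of 1.5. Subtracting GC bin medians left 55 higher and 109 lower, and subtracting length bin medians 84 and 108. In the left-out barcodes alone, a setting chosen after seeing the data, they were 998 and 1740. All 48 named genes past 1.2 kept their direction in the 13 planned settings that recompute them. Between 31 (GC bins) and 47 of them stayed past 1.2. In the left-out barcodes 44 kept it, and the log2 ratios of MT-ND6 (-0.30), RBIS (0.10), POLH (-0.054) and SF3B6 (0.092) reversed. The cause was not tested. The median of replication-dependent histones ranged from -0.38 to -0.24 over those settings and that of the double-strand break list from -0.07 to -0.03. The median of immediate early genes changed sign in 4 of them. Counting error limits which side of 1.2 genes close to it fall on, and 1 library per dose limits every ratio.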
